A study of Mus musculus with 6 samples.

Results

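Disallowed genes are genes that are active in most tissues and kept nearly silent in the insulin-producing β cells of the islet. The 10 members followed here were taken by name, with no filter on expression, from the 24421 rows of the deposited table: Ldha, Slc16a1, Hk1, Oat, Acot7, Cat, Pdgfra, Igfbp4, Mgst1 and Rest. Their levels were compared between 3 control and 3 βDKO RNA-seq libraries of tdTomato-positive β cells, sorted by flow cytometry from islets of mice aged 7 weeks. All animals had received tamoxifen, carried MIP-CreERT, an inducible Cre under an insulin promoter, and one copy of a tdTomato reporter that Cre switches on, and were of mixed C57BL/6J and 129SV background. Controls were Brg1f/+ and Brm+/-, so they too had lost one Brm copy and could lose one Brg1 copy, whereas βDKO animals were Brg1f/f and Brm-/-. Brg1 (Smarca4) and Brm (Smarca2) are alternative motor subunits of Swi/Snf, a complex that moves nucleosomes. The MIP-CreERT transgene, known to carry a growth hormone sequence, was present in both groups. The comparison addresses which disallowed genes stay silent when both are targeted. The labels number the samples without saying whether each is a separate animal or a pool, so the p-values speak to the spread among these 6 samples alone, some of which may be technical. βDKO 1 and βDKO 2 were closer to each other than any other pair within a group. Calls with βDKO 1 and βDKO 2 averaged are given at the end.

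As background, a β cell couples glucose to insulin release by sending nearly all pyruvate into mitochondria. It keeps lactate dehydrogenase A (Ldha) and the plasma membrane carrier of lactate and pyruvate (Slc16a1, MCT1) very low, so that pyruvate from exercising muscle does not trigger insulin release. The high-affinity hexokinase Hk1, which would trap glucose even when it is scarce, is repressed. In mice, DNA methylation has been linked to the silencing of Hk1 and Ldha in maturing β cells. The other members serve amino acid, lipid and peroxide metabolism, growth factor signalling, and repression of neuronal genes.

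The libraries held 25471337 to 31371080 reads as recovered from the steps of the values. The deposited unit was TPM, reads per gene length scaled to the same total in each library, so levels can be compared between genes. Ins1 and Ins2 took 42.6% to 48.3% of the TPM in controls and 6.37% to 8.93% in βDKO, and the median of all 17807 rows tested was accordingly higher by 0.57 on the log2(TPM + 1) scale. Each difference is therefore also given after division by median-of-ratios size factors, called the rescaled values, on which that median was −0.01. The words rose and fell are kept for genes with a limma adjusted p under 0.05, in that direction, on each of the 2 scales. The targeted genes overlapped between groups on TPM (Smarca4 at 11.6 ± 2.35 and 10.8 ± 0.496, Smarca2 at 22.7 ± 7.50 and 23.6 ± 1.33; SD, n = 3) and were lower after rescaling (log2 −0.86 and −0.71, adjusted p = 0.00166 and 0.0244). These rows count whole genes, including exons outside a deletion, and so check the labels only in part. All 8 β-cell markers were above 1 TPM, and 6 of them, including both insulin genes, fell, against 5.98% of all rows tested. The other 2, Nkx6-1 and Pdx1, were called higher on TPM (log2 0.42 and 0.34) and lower rescaled (log2 −0.43 and −0.51). In bulk samples, fewer cells of a type and less RNA per cell cannot be told apart.

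Most disallowed genes remained nearly silent in both groups. Ldha, Slc16a1, Hk1, Pdgfra, Igfbp4 and Rest, 6 of the 10, stayed under 1 TPM in all 6 libraries, as did 45.1% of all rows in the table. Pdgfra had no read in any library, like 27.1% of rows, and was not tested. Acot7 reached 2.98 TPM at most, Cat 10.4, Mgst1 23.0 and Oat 92.8. Oat rose in βDKO and Mgst1 fell, against 15.5% and 5.98% of all rows tested, and no other member passed on both scales. On TPM 4 of the 9 tested members were higher (Oat, Acot7, Cat and Hk1), against 55.0% of all rows tested, and 2 were lower (Mgst1 and Igfbp4), against 6.17%. After rescaling 1 was higher and 1 lower, against 15.5% and 16.4% of rows. On the recovered reads limma-voom called 2 higher (Oat and Acot7, against 18.2% of rows) and 4 lower (Ldha, Slc16a1, Igfbp4 and Mgst1, against 17.3%). The libraries of the groups did not overlap on TPM for the 4 members called higher and the 2 called lower, as for 59.1% and 7.81% of rows. Rescaled, they were separate for Oat and Acot7 (βDKO higher, 23.7% of rows) and for Ldha, Slc16a1, Igfbp4 and Mgst1 (βDKO lower, 24.2%). The members' median log2 difference was −0.05 on TPM and −0.07 rescaled, beside 0.57 and −0.01 over all rows tested. Because 1 is added before the logarithm, rows under 1 TPM, as 6 of the 10 members were, give differences near 0. The medians of members and of all rows are therefore not alike in level.

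**Figure D1:**
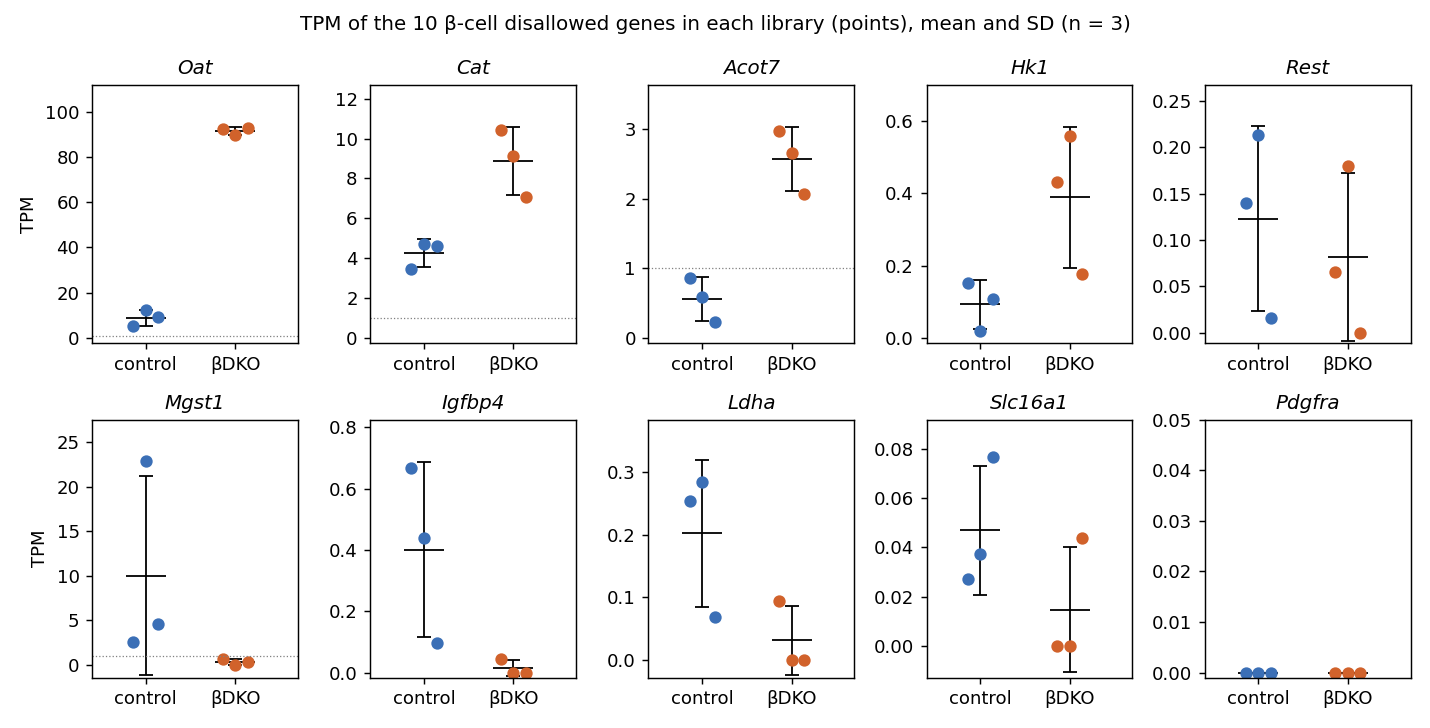
TPM of each of the 10 disallowed genes (vertical axes, linear, each with its own range) in the 3 control libraries (blue) and the 3 βDKO libraries (orange), with the mean and SD as bars and 1 TPM as a dotted line where it falls in range. Oat lies near 92 TPM in every βDKO library, while Ldha, Slc16a1, Igfbp4, Rest, Hk1 and Pdgfra stay under 1 TPM in all libraries.

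Because Hk1 and Ldha silencing has been tied to methylation of CpG dinucleotides, the 300 bases around the annotated starts (250 before, 50 after) are shown for the gene that rose, for members that stayed silent and for one with no read. They are RefSeq windows of GRCm38.p6, written 5′ to 3′ on the gene's strand, with each CG in capitals.
Oat, chr7:132576349-132576648, minus strand: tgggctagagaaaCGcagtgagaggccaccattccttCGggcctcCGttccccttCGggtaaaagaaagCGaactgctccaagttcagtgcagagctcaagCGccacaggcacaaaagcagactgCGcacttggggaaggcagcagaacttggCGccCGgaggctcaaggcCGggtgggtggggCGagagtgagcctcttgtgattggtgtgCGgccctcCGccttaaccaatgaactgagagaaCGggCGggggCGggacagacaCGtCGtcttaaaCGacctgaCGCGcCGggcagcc
Ldha, chr7:46845554-46845853, plus strand: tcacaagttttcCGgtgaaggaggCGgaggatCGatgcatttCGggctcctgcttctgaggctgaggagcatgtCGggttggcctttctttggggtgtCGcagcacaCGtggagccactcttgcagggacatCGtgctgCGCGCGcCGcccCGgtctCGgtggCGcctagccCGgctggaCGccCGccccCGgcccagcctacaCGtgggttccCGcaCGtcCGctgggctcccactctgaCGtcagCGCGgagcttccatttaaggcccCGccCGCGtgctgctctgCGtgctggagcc
Slc16a1, chr3:104638414-104638713, plus strand: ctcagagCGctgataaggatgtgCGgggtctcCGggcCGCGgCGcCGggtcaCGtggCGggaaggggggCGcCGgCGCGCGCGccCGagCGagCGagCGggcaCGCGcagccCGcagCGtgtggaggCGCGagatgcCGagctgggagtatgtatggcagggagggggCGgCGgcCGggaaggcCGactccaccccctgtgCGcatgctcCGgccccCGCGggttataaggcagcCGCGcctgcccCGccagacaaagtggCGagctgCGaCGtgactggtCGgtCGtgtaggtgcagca
Hk1, chr10:62379859-62380158, minus strand: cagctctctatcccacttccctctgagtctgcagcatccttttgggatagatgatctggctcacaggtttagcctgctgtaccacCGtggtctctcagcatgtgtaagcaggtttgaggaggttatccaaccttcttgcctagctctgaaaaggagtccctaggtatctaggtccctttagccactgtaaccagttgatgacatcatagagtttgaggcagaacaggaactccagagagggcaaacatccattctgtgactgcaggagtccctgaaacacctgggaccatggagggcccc
Hk1, chr10:62340372-62340671, minus strand: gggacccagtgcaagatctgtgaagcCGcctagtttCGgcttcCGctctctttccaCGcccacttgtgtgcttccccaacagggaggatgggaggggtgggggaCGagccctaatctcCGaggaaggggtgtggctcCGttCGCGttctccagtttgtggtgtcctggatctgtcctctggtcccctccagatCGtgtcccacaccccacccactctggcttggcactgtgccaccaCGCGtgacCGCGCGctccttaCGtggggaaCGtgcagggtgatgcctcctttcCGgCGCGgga
Pdgfra, chr5:75152001-75152300, plus strand: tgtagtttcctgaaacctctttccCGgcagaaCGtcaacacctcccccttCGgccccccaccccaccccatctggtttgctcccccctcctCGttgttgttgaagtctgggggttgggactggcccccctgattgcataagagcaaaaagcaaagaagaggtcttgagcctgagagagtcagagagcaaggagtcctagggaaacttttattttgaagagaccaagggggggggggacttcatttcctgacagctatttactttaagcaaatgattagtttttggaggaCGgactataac
The motif counted was CG, which reads the same on both strands. Oat, which rose, held 22 CG, and 76.9% of the 32841 promoter windows of this length held fewer. Silent members lay on both sides of it, with 42 CG for Slc16a1 (97.0% of windows held fewer), 30 for this Ldha start and 27 for Igfbp4, but 5 for Pdgfra (38.0%). The starts of Hk1 held 1 and 20. The remaining windows held 13 (a second Ldha start), 13 and 1 (Mgst1), 11 (Cat) and 6 (Acot7), against a median of 7 over all windows. The count of the gene that rose lay within the range of the silent genes. Methylation itself was not measured, and any part of CG content in these levels was not tested. A window was found for 9 members, and Rest had none in the table.

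Both members that handle pyruvate and lactate stayed under 1 TPM in every library, and neither passed limma on TPM or rescaled. Ldha (chromosome 7, 46841475 to 46855627, plus strand), whose enzyme interconverts pyruvate and lactate, measured 0.254, 0.284 and 0.0685 TPM in controls 1 to 3, and 0.0945, 0 and 0 TPM in βDKO 1 to 3. These values stood for 21, 17 and 5 reads, and 5, 0 and 0 reads. The highest βDKO library lay above the lowest control, so the groups overlapped on TPM. Rescaled, all βDKO libraries lay under all controls. Pooled over libraries, the TPM-scale ratio of βDKO to control was 0.161 (95% exact binomial interval 0.0499 to 0.407, counting error only). Limma gave a log2 difference of −0.22 on TPM (SE 0.08, adjusted p = 0.0605) and of −0.31 rescaled (SE 0.10, adjusted p = 0.0633), and without control 3 both scales passed (adjusted p = 0.00933 and 0.00574). On the recovered reads limma-voom placed Ldha lower (adjusted p = 0.0157). Mouse Ldha has close copies elsewhere: of 3575 distinct 50-base windows in its GENCODE transcripts, 331 (9.3%) also occur in transcripts of other genes, and how the authors' counting treated such reads is not given in the sources used here.

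Slc16a1 (chromosome 3, 104638668 to 104658462) was the lowest member with any read. The controls held 0.0270, 0.0373 and 0.0764 TPM and the βDKO libraries 0, 0 and 0.0439 TPM, or 2, 2 and 5 against 0, 0 and 2 reads. The groups overlapped on TPM and were separate rescaled, and 1 read was worth 0.0135 to 0.0220 TPM here. The difference did not pass limma on TPM (−0.05, SE 0.04, adjusted p = 0.364) or rescaled (−0.07, adjusted p = 0.231). From 9 and 2 reads, the pooled ratio of βDKO to control was 0.308 on TPM (counting interval 0.0324 to 1.49) and 0.170 rescaled (0.0179 to 0.821). Limma-voom gave adjusted p = 0.0471, lower in βDKO.

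Of 12 further genes of pyruvate and lactate handling, 9 were tested. By TPM 8 were higher and 1 lower (55.0% and 6.17% of all rows tested), and once rescaled 5 and 3 (15.5% and 16.4%). Those that rose were Bsg, Emb, Ldhb, Ldhd and Slc16a7. The 3 untested genes, Ldhc and the carriers Slc16a3 (MCT4) and Slc16a8, had no read in any library. Bsg (basigin), a chaperone that carries MCT1 to the membrane, rose from 262 ± 12.7 to 1246 ± 94.8 TPM. Emb (embigin), another such chaperone, rose from 313 ± 43.3 to 1178 ± 405 TPM (SD, n = 3 each). Mpc2, a subunit of the mitochondrial pyruvate carrier, was at 73.8 ± 5.01 and 151 ± 6.42 TPM, higher on TPM only (rescaled adjusted p = 0.136). Family members singled out after their values were seen included Ldhb, the other main lactate dehydrogenase subunit, which measured 9.99, 18.5 and 14.1 TPM in the controls against 112, 108 and 88.5 TPM in the βDKO libraries. All βDKO libraries lay above all controls (log2 2.80 on TPM and 1.98 rescaled, adjusted p = 0.000195 and 0.000456). Of its 50-base windows, 21.0% also occur in transcripts of Gm5514. The D-lactate dehydrogenase Ldhd rose from 18.8 ± 1.60 to 68.2 ± 3.56 TPM, and Slc16a7 (MCT2) from 0.198 ± 0.129 to 1.05 ± 0.214 TPM. Pcx, pyruvate carboxylase, fell from 53.0 ± 8.95 to 28.9 ± 2.57 TPM.

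**Figure D2:**
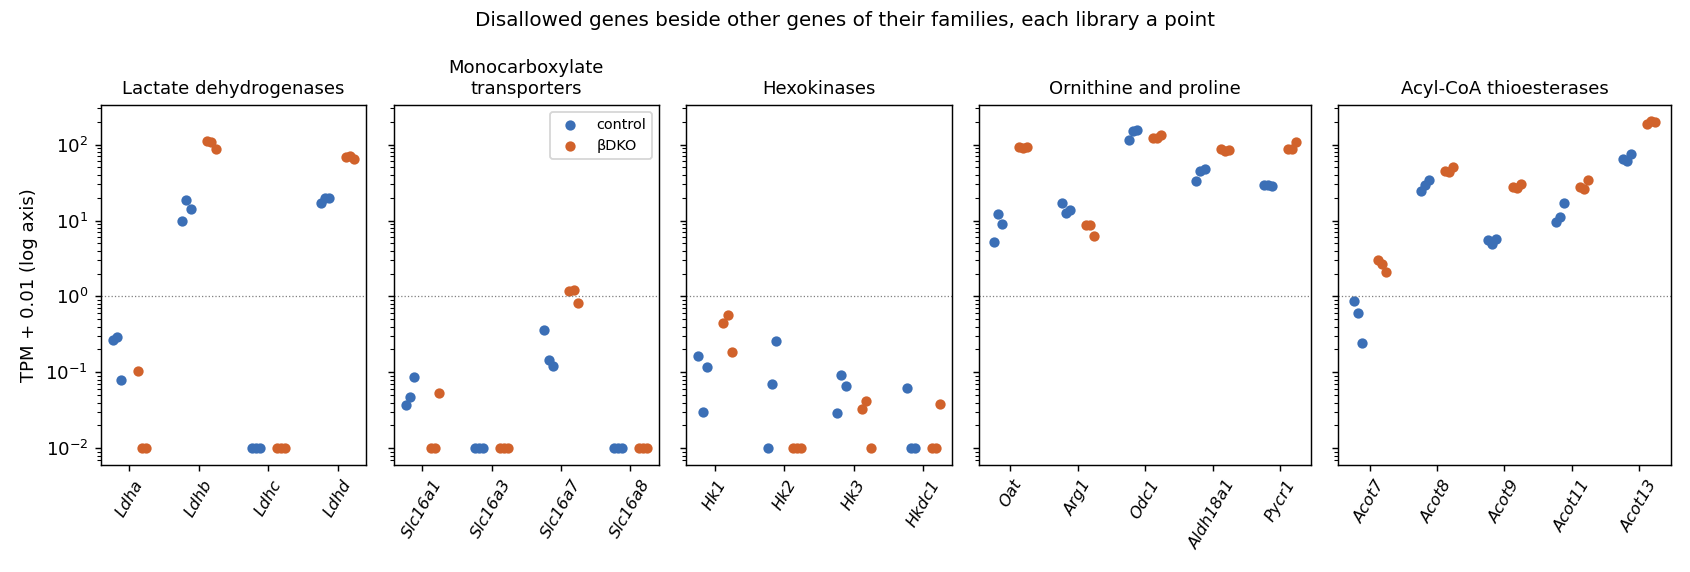
Levels as TPM + 0.01 on a log axis for 5 gene families, with each library a point (control blue, βDKO orange) and 1 TPM as a dotted line; points at 0.01 are libraries with no read. Ldha lies under 1 TPM while Ldhb and Ldhd lie near or above 10 TPM and are higher in βDKO, and Hk1, Hk2, Hk3 and Hkdc1 lie under 1 TPM in both groups.

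Hk1 (chromosome 10, 62268855 to 62379908, minus strand) stayed under 1 TPM and was higher in βDKO on the deposited scale. Its values were 0.152, 0.0200 and 0.107 TPM in the 3 controls and 0.430, 0.558 and 0.177 TPM in βDKO, from 21, 2 and 13 and from 38, 48 and 15 reads. On TPM every βDKO library lay above every control, whereas the rescaled values overlapped. Limma gave a log2 difference of 0.34 on TPM (SE 0.11, adjusted p = 0.0385) and of 0.19 rescaled (SE 0.11, adjusted p = 0.249). The TPM call was lost without any single control, without βDKO 1 or without βDKO 2 (adjusted p = 0.0561 to 0.115). Exons of Hk1 overlap the antisense gene Hk1os over 157 bases, and the strand setting of the counting is not given in the sources used here.

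Of 6 further glucose-phosphorylating enzymes and regulators, TPM placed 1 higher and 1 lower (55.0% and 6.17% of all rows tested). Rescaling placed 2 lower and none higher (16.4% and 15.5%). Adpgk, an ADP-dependent sugar kinase, fell from 25.2 ± 5.76 to 15.4 ± 3.26 TPM. Hk2, Hk3 and Hkdc1 were under 1 TPM in all libraries, and Hk2 had no read in βDKO.

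Oat was the one member that rose. The gene (chromosome 7, 132557478 to 132576398, minus strand) encodes ornithine aminotransferase, a mitochondrial enzyme that links ornithine to glutamate and proline. Controls 1 to 3 held 5.13, 12.2 and 9.02 TPM and βDKO 1 to 3 held 92.3, 89.7 and 92.8 TPM, from 185 to 317 and 2016 to 2128 reads. The βDKO libraries were close to one another and all above the controls. Mean TPM rose 10.4-fold and the rescaled mean 5.95-fold, with log2 differences of 3.31 (SE 0.27, limma adjusted p = 0.000215) and 2.51 (SE 0.20, adjusted p = 0.000478). Its mean exceeded 69.2% of all rows in controls and 92.5% in βDKO. None of its 2309 windows of 50 bases occurs in transcripts of another gene.

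The enzymes around Oat did not move as one. Of 11 tested genes of ornithine, proline and glutamate metabolism, TPM put 5 higher and 3 lower (55.0% and 6.17% of all rows tested). The rescaled values put 1 higher and 4 lower (15.5% and 16.4%). Glul, glutamine synthetase, fell from 221 ± 11.6 to 74.1 ± 4.73 TPM (SD, n = 3). Odc1, which turns ornithine into putrescine, was at 140.0 ± 21.5 and 125 ± 6.13 TPM, lower rescaled only (log2 −0.99). Pycr1, a proline-forming reductase, named after its values were seen as the single gene of the list to do so, rose from 29.0 ± 0.266 to 95.6 ± 12.4 TPM.

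Acot7 (chromosome 4, 152178134 to 152271855) encodes a cytosolic acyl-CoA thioesterase best known from brain. The controls measured 0.863, 0.587 and 0.233 TPM and the βDKO libraries 2.98, 2.66 and 2.07 TPM, from 63, 31 and 15 and from 139, 121 and 93 reads. All controls were under 1 TPM and all βDKO libraries above 2, with no overlap on either scale. Its mean TPM ratio was 4.58 and the rescaled ratio 2.41. The log2 difference passed on TPM (1.21, SE 0.20, limma adjusted p = 0.00238) and missed the threshold rescaled (0.74, SE 0.24, adjusted p = 0.0604). Rescaled, it passed without control 1 (adjusted p = 0.0175), with rows under 1 TPM removed (0.0402) and on recovered reads (0.0298). Among 11 other acyl-CoA thioesterases, 5 were higher and 3 lower by TPM (55.0% and 6.17% of all rows tested). After rescaling the counts were 2 and 4 (15.5% and 16.4%). Acot13, the most abundant, rose from 67.1 ± 8.15 to 197 ± 7.52 TPM, while Acot8 (29.4 ± 4.94 and 46.0 ± 3.52 TPM) and Acot11 (12.6 ± 3.84 and 29.4 ± 4.39 TPM) were higher on TPM only.

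**Figure D3:**
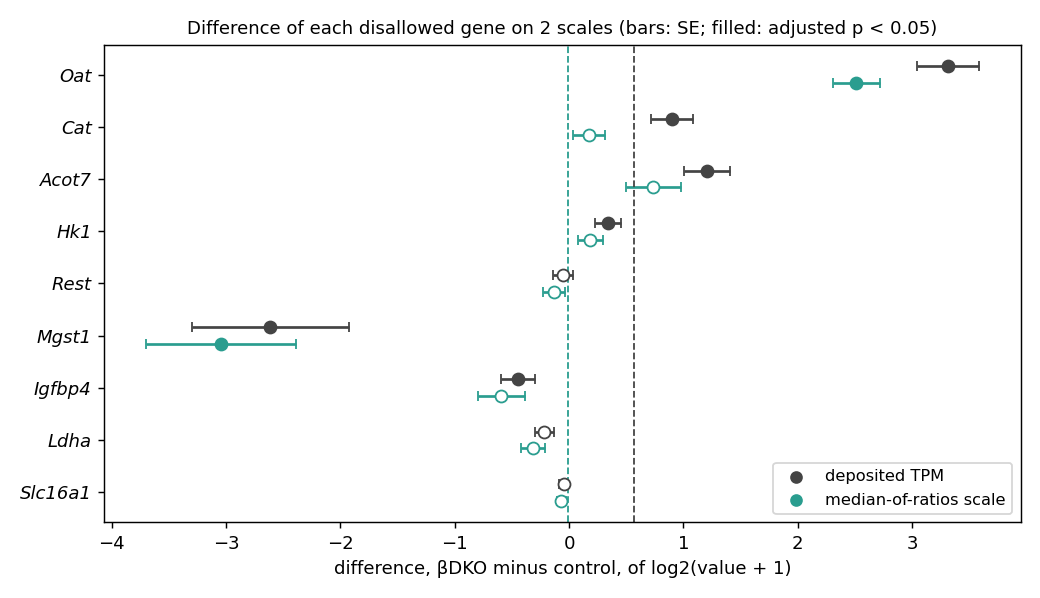
Difference between βDKO and control means of log2(value + 1) for the 9 members with reads (horizontal axis), on deposited TPM (grey) and rescaled values (green), with SE bars, filled where limma's adjusted p was under 0.05. Dashed lines mark the median of all 17807 rows on each scale (0.57 and −0.01). Oat and Mgst1 are filled on both scales.

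Of the peroxide-handling members, Mgst1 fell and Cat was higher on TPM only. Cat (chromosome 2, 103453849 to 103485160, minus strand), catalase, which breaks down hydrogen peroxide, measured 3.47, 4.73 and 4.62 TPM across the controls and 10.4, 9.10 and 7.05 TPM across the βDKO libraries. The groups were separate on TPM, where the mean was 2.07-fold higher (log2 0.90, SE 0.18, limma adjusted p = 0.00573). Rescaled, they overlapped at 5.69 ± 0.237 and 6.59 ± 1.17 (log2 0.17, SE 0.14, adjusted p = 0.406). Of 19 other genes of peroxide and glutathione metabolism, the TPM scale gave 13 higher and 3 lower (55.0% and 6.17% of all rows tested). The rescaled one gave 4 higher and 8 lower (15.5% and 16.4%). Gpx1, a cytosolic glutathione peroxidase, rose from 246 ± 27.3 to 1338 ± 375 TPM, and the secreted Gpx3 fell from 765 ± 86.5 to 381 ± 153 TPM (SD, n = 3). Sod1, copper-zinc superoxide dismutase, was higher on TPM only.

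Mgst1 (chromosome 6, 138140316 to 138156755), a membrane-bound glutathione transferase and peroxidase, fell. Controls 1 to 3 had 2.60, 23.0 and 4.52 TPM and βDKO 1 to 3 had 0.595, 0 and 0.309 TPM, from 41, 262 and 63 and from 6, 0 and 3 reads. All βDKO libraries lay under all controls, and control 2 stood well above the other controls. Limma gave a log2 difference of −2.61 on TPM (SE 0.68, adjusted p = 0.0154) and of −3.05 rescaled (SE 0.66, adjusted p = 0.0157). Without control 2 it was −1.80 (adjusted p = 0.00473) and −2.30 (adjusted p = 0.00301). The rescaled call was lost without βDKO 2 (adjusted p = 0.0584) and with βDKO 1 and βDKO 2 averaged (adjusted p = 0.0586).

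Some markers of immune cells were also lower in βDKO. Of 15 immune markers, all with a read somewhere, 10 were highest in control 2 and 1 in each other library. How many of all rows were highest in control 2 was not counted. In βDKO 4 of these markers fell (C1qa, C1qb, Fcer1g and Cd79a), against 5.98% of all rows tested. The summed level of all 15 was 122, 221 and 205 TPM in controls 1 to 3 and 11.1 to 15.04 TPM in βDKO. C1qa made up most of the sum in controls (131 ± 41.6 TPM, and 5.79 ± 1.66 TPM in βDKO), so the sum mainly follows this gene. Mgst1 was at 23.0 and 4.52 TPM in controls 2 and 3. Singled out after their values were seen, the macrophage genes C1qb (1.52, 13.8 and 2.42 TPM in controls 1 to 3) and Lyz2 (2.32, 13.3 and 0.512 TPM) peaked in control 2. Adgre1, which encodes the macrophage antigen F4/80, had no read in βDKO and was at 0.0921, 1.27 and 0.313 TPM in controls. The leukocyte antigen Ptprc was at most 0.0775 TPM, and the T-cell genes Cd3e and Cd3d had reads in βDKO only. The part of immune cells in the Mgst1 difference was not tested.

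**Figure D4:**
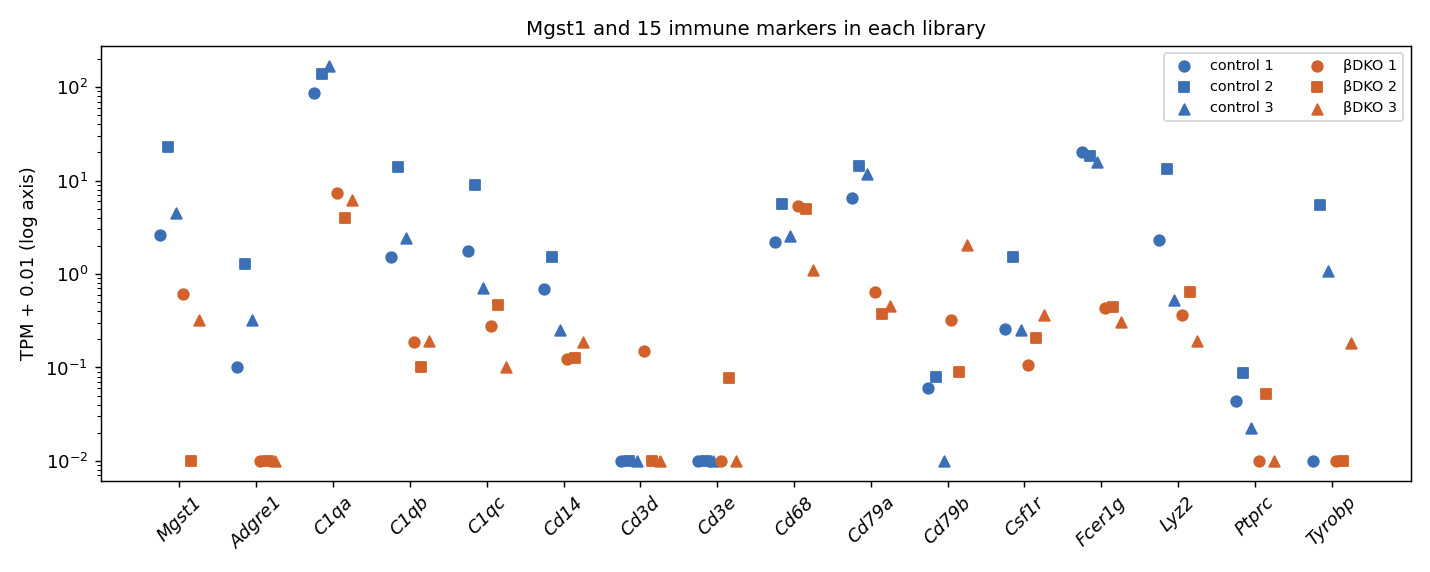
Mgst1 beside the 15 immune markers, as TPM + 0.01 on a log axis, with each library a point (control blue, βDKO orange; shape gives the replicate number). Control 2 (blue squares) is the highest library for Mgst1 and for 10 of the 15 markers.

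Both growth factor members were silent. Pdgfra (chromosome 5, 75152292 to 75198215), the receptor for platelet-derived growth factor on mesenchymal cells, had 0 reads in all 6 libraries. With the merged exon length of 10024 bases in GENCODE, a count of 0 allows up to 0.0179 to 0.0291 TPM per library (3 reads, counting error only). Markers of stellate cells and fibroblasts were near 0 as well: 10 of 11 stayed under 1 TPM in all libraries, the list summed to 1.35 to 3.03 TPM in controls and 0.454 to 1.87 TPM in βDKO, and Rgs5, a pericyte gene, fell from 1.09 ± 0.290 to 0.332 ± 0.178 TPM. Of 6 other PDGF genes, 3 passed as higher and 1 as lower by TPM (55.0% and 6.17% of all rows tested). After rescaling 2 and 1 passed (15.5% and 16.4%). The ligand Pdgfd rose from 0.121 ± 0.116 to 4.05 ± 0.769 TPM and the receptor-like Pdgfrl from 13.7 ± 2.28 to 48.4 ± 0.764 TPM, while the ligand Pdgfa was at 34.9 ± 1.82 and 50.5 ± 5.97 TPM, higher on TPM only.

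Igfbp4 (chromosome 11, 99041244 to 99054392), a secreted binding protein that restrains insulin-like growth factors, had 0.666, 0.440 and 0.0983 TPM in the 3 controls, with 0.0452, 0 and 0 TPM in the βDKO libraries. This was 23, 11 and 3 reads against a single read. All βDKO libraries lay under all controls on both scales. The pooled TPM-scale ratio of βDKO to control was 0.0375 (95% exact binomial interval 0.000925 to 0.222, counting error only). Limma gave a log2 difference of −0.44 on TPM (SE 0.15, adjusted p = 0.0366) and of −0.59 rescaled (SE 0.21, adjusted p = 0.0736), and limma-voom on the reads gave adjusted p = 0.00693. The TPM call was lost without control 1, control 2 or any single βDKO library (adjusted p = 0.0723 to 0.0982). Endothelial and acinar markers were most often highest in control 1, the library with the highest Igfbp4, for 8 of 11 and 12 of 14 genes. How many of all rows were highest in control 1 was not counted. The acinar list summed to 679, 68.2 and 17.0 TPM in controls and 171, 174 and 19.8 TPM in βDKO, with no gene called. The endothelial list summed to 6.09 to 13.1 TPM in controls and to more, 27.5 to 35.6 TPM, in βDKO. On both scales 2 of its genes were higher and none lower (15.5% and 5.98% of all rows tested). Among other islet cells, the alpha-cell list summed to 5098, 4024 and 2390 TPM in controls and 584 to 877 TPM in βDKO. Of its 8 genes, 5 fell and none rose. The PP and epsilon list summed to 4019, 2145 and 1592 TPM in controls and 608 to 891 TPM in βDKO. Of its 3 genes, 2 fell and none rose. In the delta-cell list of 4 genes, 1 fell and 1 rose. The part of any of these cell types in the Igfbp4 values was not tested.

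Of 12 other IGF pathway genes, TPM gave 2 higher and 3 lower (55.0% and 6.17% of all rows tested). Rescaling left 4 lower and none higher (16.4% and 15.5%). Igfbp7, the most abundant binding protein of the list, fell from 117 ± 2.17 to 75.7 ± 13.2 TPM. Igfbp5 varied within groups (14.5, 85.7 and 46.5 TPM in controls and 96.6, 91.3 and 49.3 TPM in βDKO) and did not pass on either scale. The receptor Igf1r was at 18.1 ± 7.60 and 51.4 ± 4.21 TPM, higher on TPM only. Pappa2, named after its values were seen, encodes a protease that cleaves binding proteins, and fell from 5.92 ± 2.62 to 1.98 ± 0.546 TPM.

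Rest (chromosome 5, 77265491 to 77286432) encodes the repressor that silences neuronal genes outside neurons, and its absence lets β cells express part of the neuronal programme. The controls showed 0.140, 0.213 and 0.0159 TPM and the βDKO libraries 0.0657, 0.180 and 0 TPM, from 10, 11 and 1 and from 3, 8 and 0 reads. The groups overlapped widely, and neither scale passed (TPM log2 −0.05, SE 0.09, limma adjusted p = 0.633; rescaled −0.13, SE 0.10, adjusted p = 0.340). From 22 and 11 reads, the pooled ratio of βDKO to control was 0.694 on TPM (counting interval 0.304 to 1.49) and 0.382 rescaled (0.167 to 0.823). These intervals cover counting error and not the spread between libraries.

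All 11 genes of Rest's cofactors and modifiers were above 1 TPM in at least 1 library. On TPM 11 were higher, against 55.0% of all rows tested. Rescaled, 2 were higher and 1 lower, against 15.5% and 16.4%. Kdm1a, a histone demethylase, was at 87.3 ± 11.7 and 119 ± 5.77 TPM, higher on TPM and lower rescaled (log2 −0.39). Hdac2, a deacetylase (67.2 ± 2.75 and 117 ± 8.24 TPM), and Ctdsp1, a phosphatase that acts on Rest (68.0 ± 10.2 and 101 ± 7.27 TPM), were higher on TPM only. A list of 22 genes known as Rest targets had 13 higher and 2 lower by TPM (55.0% and 6.17% of all rows tested). After rescaling it had 10 and 6 (15.5% and 16.4%). The granule proteins among these targets went opposite ways, Chgb rising from 4101 ± 806 to 44530 ± 1943 TPM and Chga falling from 18240 ± 1647 to 4161 ± 182 TPM. The vesicle protein Syp was lower rescaled only (373 ± 40.9 and 409 ± 6.26 TPM). Singled out after their values were seen, the sodium channel Scn2a1 rose from 0.0438 ± 0.0217 to 1.98 ± 0.820 TPM, and the neurofilament gene Nefl, with no read in controls, was at 0.514, 0.384 and 0.194 TPM in βDKO.

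A wider list of 22 genes named elsewhere as disallowed or low in β cells was examined in the same way. Of these, 12 were under 1 TPM in all libraries, and 1 (Hsd11b1) had no read. Of 21 tested, TPM gave 5 higher and 2 lower (55.0% and 6.17% of all rows tested) and rescaling 2 of each (15.5% and 16.4%). The median log2 differences were 0.07 and −0.11. Among the 5 most abundant, Zyx, a focal adhesion protein, rose from 1.68 ± 0.245 to 6.66 ± 1.86 TPM (SD, n = 3), and Parp3, a DNA repair enzyme, was at 1.06 ± 0.214 and 3.20 ± 0.703 TPM, higher on TPM only. Tst, a mitochondrial sulfurtransferase (4.90 ± 1.97 and 7.27 ± 3.13 TPM), Garem (1.96 ± 0.725 and 2.77 ± 0.158 TPM) and the transcriptional regulator Lmo4 (1.33 ± 0.612 and 1.94 ± 0.875 TPM) did not pass on either scale. Outside those 5, and named after their values were seen, the other genes that passed on both scales were Arap2, Mylk and Arhgdib. Arap2 rose to 0.968 ± 0.160 TPM from 0.180 ± 0.109 TPM. Mylk, a myosin kinase of contractile cells, fell from 1.23 ± 0.954 to 0.0940 ± 0.0200 TPM. Arhgdib, a GTPase regulator of blood cells, fell from 0.0845 ± 0.0310 TPM to no read. Among all these genes and the members, Oat had the highest mean level in βDKO.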

How the data were processed

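RNA-seq libraries of 3 control and 3 βDKO samples were used. The authors deposited TPM values, 1 column per sample, per the file headers. FastQC, Trimmomatic, HISAT2, HTSeq, DESeq2 and mm10 are named in the submitters' processing notes, with no role or version; the annotation, strand and multi-mapping settings are not stated.

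Of 24421 rows, 17807 above 0 in at least 1 library were tested. Limma 3.58.1 (R 4.3.3; empirical Bayes with trend and robust options, two-sided, group as the single factor, Benjamini-Hochberg over all tested rows, threshold 0.05) was run on log2(TPM + 1), a scale that understates the change of low genes, and on TPM divided by size factors of 0.639 to 1.37. No filter on low values was applied, since most members are low. With 3 against 3 samples an exact permutation test of 1 gene cannot go below p = 0.1. The fit was tested on simulated data, with changes planted only in genes with more reads than Ldha, Slc16a1, Igfbp4 and Rest. That test does not cover members with so few reads.

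Whole reads, within 0.01 of a read, were recovered for 16625 of 16625 rows above 0 in at least 2 libraries (100%), up to a factor common to a row. The 1182 rows above 0 in 1 library were entered as 1 read. These reads entered limma-voom, with trimmed-mean scaling, and the pooled ratios with their counting intervals. The other limma fits used the TPM values. Because the values are TPM, the planned edgeR and DESeq2 tests were not run. Intervals and floors cover counting error only.

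Members, lists and markers were chosen with earlier results of these data known. Named genes were all members, the 3 most abundant rows of each list (5 of the wider list), the 2 most abundant of each marker list where used, and exceptions stated as such; some of these genes are not reported here. Coordinates and windows of 50 bases come from GENCODE vM21 (GRCm38, the mm10 assembly). Gene lengths recovered from the values can differ from it, as for Ldha, with 4944 bases against 3310 merged exon bases. The windows may therefore not match the annotation that was counted. Garem was matched through RefSeq synonyms of Garem1.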

Additional observations from a re-analysis of the deposited data

How the results depend on the processing

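Oat was called higher on both scales under every alternative run, and no member changed direction in a call. The number of members called moved with the low-value settings. On TPM, keeping rows of at least 5 TPM in 3 libraries left 2 members higher and 0 lower (4 and 2 in the report) and 480 of 1098 rows lower. The members lower were 1 with a 1 TPM filter, 1 without limma's trend and robust options, 1 with βDKO 1 and βDKO 2 averaged, and 1 to 3 when single libraries were left out. That average left 3 members higher on TPM. Hk1 lost its TPM call there (limma adjusted p = 0.0996), as did Igfbp4 (adjusted p = 0.0824). βDKO 1 and βDKO 2 differed least, with an SD of rescaled log2 differences of 0.155 over rows of at least 5 TPM in 3 libraries. Other βDKO pairs had 0.286 and 0.289, and control pairs 0.347 to 0.476. Whether βDKO 1 and βDKO 2 are technical repeats is not stated in the labels. On the rescaled values, 2 members were higher with the 1 TPM filter and 2 on recovered reads (1 in the report), and 1 to 2 without single libraries. The members lower rescaled were 0 with the 5 TPM filter, 3 with pseudocount 0.1, 0 with βDKO 1 and βDKO 2 averaged, 4 on recovered reads and 0 to 3 without single libraries (1 in the report). Rows higher rescaled were 1632 with that average and 1631 to 2894 without single libraries (2768 in the report), and rows lower were 1737 and 1746 to 3039 (2915 in the report). Without βDKO 1 they were 1631 and 1746, and without βDKO 2 they were 1633 and 1785.

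Replicate numbers recur in the groups. Deviations from the group mean correlated at −0.08, −0.02 and 0.20 for same-numbered samples, and at −0.25 to 0.24 for other pairs. Deviations within a group add up to 0, so these correlations cannot decide whether same-numbered samples were paired. With the replicate block, 2 members were higher rescaled (Oat and Acot7). Among single members the block moved 2 calls over the threshold and took 1 away.

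Under 0.5 and 5 TPM, 4 and 7 members were silent in all libraries, and 5 at 1 on the rescaled values. edgeR and DESeq2 were not run, since the values are TPM. The depth limits Ldha, Slc16a1, Igfbp4 and Rest, at 11 to 48 reads each, and the cause of these shifts was not tested.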
